A study of Saccharomyces cerevisiae with 6 samples.

Results

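*RTC2* (YBR147W, also named *YPQ3*), *YPQ1* (YOL092W), *YPQ2* (YDR352W) and *ERS1* (YCR075C) encode the PQ-loop transporters of the budding yeast vacuole, and their transcripts were compared between cells with wild-type H2B and cells with H2B K37A. The members were chosen by their annotation, and each was read by 1 probe set, so that 4 of the 5449 *S. cerevisiae* genes tested are described, on 4 of 5498 probe sets. The set was built around *RTC2* because its signal was already known to be at least 2-fold lower in the mutant on these same arrays, and the difference between the strains is therefore given for the members as a description, without a test.

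RNA came from 3 cultures of strain YKG001, which expresses wild-type H2B, and 3 cultures of strain YKG007, which expresses H2B with alanine in place of lysine 37, and the question was whether loss of this methylated residue alters transcription. Both strains are MATa, lack both chromosomal H2A-H2B gene pairs, which were replaced by *LEU2* ((hta1-htb1)D::LEU2) and *TRP1* ((hta2-htb2)D::TRP1), and carry leu2D1, ura3-52, lys2D1, lys2-128d, his3D200 and trp1D63. H2A and Flag-tagged H2B came from a *HIS3* plasmid in each strain, pZS145 (HTA1-Flag-HTB1) in YKG001 and pKG2 (HTA1-Flag-htb1 (K37A)) in YKG007, so each histone is represented by 1 strain. The cultures grew side by side in the rich medium YPD to an OD600 of 1.0, without synchronization, and each was hybridized to its own Affymetrix Yeast Genome 2.0 array. The values are log2 RMA signals, which the authors normalized together over the arrays, and a probe set's signal can be compared between arrays but not with the signal of another probe set. The arrays had *S. cerevisiae* medians of 11.05 to 11.11, and over the probe sets (no independent replicates) Pearson's r was at least 0.994 between arrays of a strain and 0.984 to 0.996 between strains. The MATa label was checked against mating type genes. All 6 genes of a cells were above background, the 95th percentile (log2 signal 6.30) of 1747 probe sets named for genes outside the *S. cerevisiae* table, and the alpha pheromone gene *MF(ALPHA)1* was below it, with the other 3 of 4 alpha-cell genes above it. The summed linear signal was 40550 to 41860 in wild-type and 40850 to 44250 in K37A arrays for the a-cell genes, and 1761 to 1853 and 1849 to 2034 for the alpha-cell genes. Each sum can be compared between the strains, but the a-cell and alpha-cell sums cannot be set against each other, since they come from different probe sets.

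PQ-loop proteins are small membrane transporters named for a conserved proline-glutamine pair, and relatives serve the lysosome of animals as the members here serve the vacuole, the yeast counterpart of that organelle. The vacuole stores basic amino acids, and transporters in its membrane, driven by the proton gradient that the vacuolar ATPase builds, move them in and out. Ypq1, Ypq2 and Rtc2 resemble human PQLC2, a lysosomal exporter of cationic amino acids, and have been linked to lysine, arginine and histidine, respectively. Ers1 is the yeast relative of human cystinosin, the lysosomal cystine exporter whose loss causes cystinosis.

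*RTC2*, whose name comes from a screen for restriction of telomere capping, had the largest difference of the 4. Its log2 signal was 10.30, 10.19 and 10.01 on the arrays of wild-type replicates 1, 2 and 3 and 9.47, 8.93 and 8.79 on those of H2B K37A replicates 1, 2 and 3. Every mutant array lay below every wild-type array, with a gap of 0.54 on the log2 scale between the lowest wild-type and the highest mutant value. The means were 10.17 ± 0.15 and 9.06 ± 0.36 (SD, n = 3 each), which differed by -1.10 on the log2 scale (limma standard error 0.18), or a K37A to wild-type ratio of 0.465. Among the 5498 probe sets, *RTC2* ranked 10 from the lowest difference, and 0.327% of probe sets were at least 2-fold lower in the mutant. Set against the wild-type mean, the mutant arrays stood at ratios of 0.618, 0.422 and 0.386, so the array of K37A replicate 1 was not 2-fold lower while the other 2 were. The spread of *RTC2* between cultures of one strain was itself large, since its pooled within-strain SD of 0.27 exceeded that of 98.7% of the probe sets, where the median was 0.0676. Without K37A replicate 3 the difference was -0.97, short of 2-fold, and without K37A replicate 1 it was -1.31. RNA was taken from whole cultures, so a lower signal in every cell and a smaller share of cells with the transcript cannot be told apart.

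**Figure D1:**
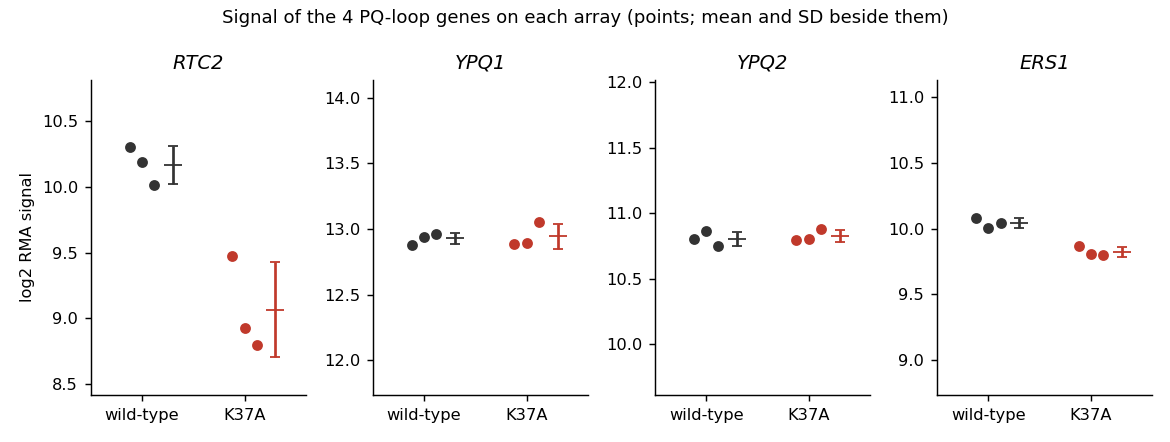
Log2 RMA signal of each PQ-loop gene on the 3 wild-type H2B arrays (black) and the 3 H2B K37A arrays (red), with the mean and SD beside the points and the same span on each vertical axis. RTC2 lay between 10.01 and 10.30 in wild-type and between 8.79 and 9.47 in K37A cells, ERS1 was separated by a small gap, and YPQ1 and YPQ2 overlapped.

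*YPQ1*, the member linked to lysine, showed no such separation. In wild-type cells its log2 signal was 12.88, 12.94 and 12.96, and in K37A cells it was 12.88, 12.89 and 13.05. The groups overlapped, and the highest value was that of K37A replicate 3. The means of 12.93 ± 0.045 and 12.94 ± 0.095 (SD, n = 3 each) differed by 0.018 on the log2 scale (standard error 0.057), a ratio of 1.01. *YPQ2*, linked to arginine, had 10.80, 10.86 and 10.75 in wild-type and 10.80, 10.80 and 10.88 in K37A cells, which also overlapped. Its means were 10.80 ± 0.055 and 10.83 ± 0.047 (SD, n = 3 each), apart by 0.023 on the log2 scale (standard error 0.045), or a ratio of 1.02. Both genes were far above background on every array, with lowest signals 6.57 and 4.45 log2 units over it, so a low signal did not limit them. The sign of these small differences was not stable, being -0.037 for *YPQ1* and -0.0042 for *YPQ2* without K37A replicate 3.

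*ERS1*, the cystinosin relative, was lower in the mutant by a small amount. In wild-type cells its log2 signal was 10.08, 10.01 and 10.05, and in K37A cells it was 9.87, 9.81 and 9.80. The groups did not overlap, and the gap between them, 0.14, was wider than the range of either group, 0.077 in wild-type and 0.067 in K37A cells. The means were 10.05 ± 0.039 and 9.82 ± 0.037 (SD, n = 3 each), which differed by -0.22 on the log2 scale (standard error 0.039), or a ratio of 0.857. In contrast to *RTC2*, *ERS1* varied little between cultures, with a pooled within-strain SD above that of only 19.4% of probe sets. The log2 difference of *RTC2* was 0.88 units more negative than that of *ERS1*, 1.12 more than that of *YPQ1* and 1.13 more than that of *YPQ2*. Of the 4 members, *RTC2* and *ERS1* had an adjusted p under 0.05 from limma over all probe sets, as did 14.5% of the probe sets, and the same 2 had groups that did not overlap, as did 42.1% of the probe sets. These counts belong to the contrast that led to the choice of the members and nothing is read from them.

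**Figure D2:**
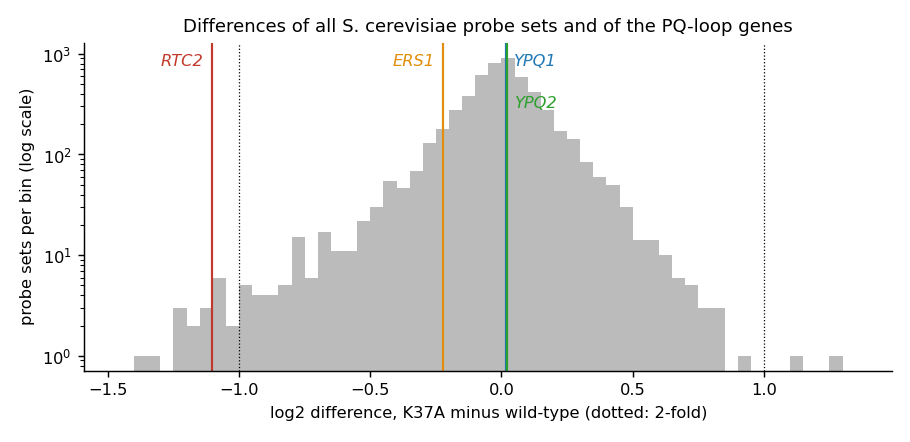
Number of S. cerevisiae probe sets (log scale) by log2 difference between H2B K37A and wild-type H2B, in bins of the 5498 probe sets, with a line for each PQ-loop gene and dotted lines at 2-fold. RTC2 lies in the lower tail at -1.10, ERS1 at -0.22, and YPQ1 and YPQ2 near 0.

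The other genes of amino acid transport and sensing at the vacuole were described from lists made with earlier results of these data known, and their counts are to be read against the 6.44% of probe sets called higher and the 8.08% called lower. Of 14 other transporters of amino acids at the vacuolar membrane, 2 fell, none rose and 12 did not pass, with a median log2 difference of 0.019 beside 0.0015 over all genes. *AVT2*, a putative amino acid transporter of the AVT family, fell to a ratio of 0.749, with 9.29 ± 0.10 in wild-type and 8.88 ± 0.077 in K37A cells (SD, n = 3 each) (limma adjusted p = 0.0209). *UGA4*, a permease for gamma-aminobutyric acid, fell to a ratio of 0.840 (limma adjusted p = 0.0467). For both genes every mutant array lay below every wild-type array, as for 21.5% of all probe sets. In the same list 3 genes, *VBA2* among them, had every mutant array above every wild-type array, as did 1121 of the 5449 genes tested. *VBA3* and *VBA2*, of the vacuolar basic amino acid family, had ratios of 1.24 and 1.08 and did not pass (limma adjusted p = 0.106 and 0.137). The signal of *VBA3* was dim, at 6.64 in wild-type and 6.96 in K37A cells beside a background of 6.30, and its groups overlapped.

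Genes that power, deliver and remove vacuolar transporters gave few calls. None of 19 subunits and assembly factors of the vacuolar ATPase passed the limma test (median -0.0078), and the member farthest from 0 was the assembly factor *VPH2*, with a ratio of 0.898. Of 14 genes for the AP-3 route, by which Ypq1 reaches the vacuole, and for the ubiquitin ligases of its membrane, *UBX3*, of the Dsc ligase complex, fell to a ratio of 0.848 (limma adjusted p = 0.0456), and 13 did not pass, with a median of -0.10. *SSH4* encodes the adaptor through which the ligase Rsp5 marks Ypq1 for degradation when lysine is withdrawn. Its ratio of 0.869 did not pass (limma adjusted p = 0.0812), and its 3 mutant arrays were all lower, as for 21.5% of all probe sets. *TUL1*, another ubiquitin ligase, and *EAR1*, another Rsp5 adaptor, had ratios of 0.882 and 1.12 and did not pass either (limma adjusted p = 0.0552 and 0.0780). Over this list 4 genes had every mutant array below every wild-type array, and 1, *EAR1*, had every mutant array above. None of 7 vacuolar hydrolases passed, with a median of -0.040 and ratios of 0.896 for *LAP4*, named APE1 in assembly R64, and 0.915 for *DAP2*.

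Amino acid sensing at the vacuole is carried out by the EGO and SEA complexes and TORC1, the kinase complex they regulate. None of 19 of these genes passed the limma test, with a median of 0.0073 and differences from -0.25 for *LST8*, a TORC1 subunit, to 0.18 for *SEA1*, named IML1 in assembly R64. Of the 19, 3 had every mutant array below every wild-type array and 5, *SEA1* among them, had every mutant array above. Of 14 genes of lysine and histidine synthesis, 2 rose, 1 fell and 11 did not pass, with a median of 0.014. The list left out *HIS3*, the plasmid marker, and *LYS2*, which is mutated in both strains. These had ratios of 0.850 and 0.953 (limma adjusted p = 0.0341 and 0.437). *LYS4*, homoaconitase, and *LYS21*, homocitrate synthase, both of the lysine pathway, rose to ratios of 1.16 and 1.13 (limma adjusted p = 0.0225 and 0.0463), and *HIS2*, of histidine synthesis, fell to 0.882 (limma adjusted p = 0.0336). *HIS6*, also of histidine synthesis, had a ratio of 1.10 that did not pass (limma adjusted p = 0.0619). The plasma membrane permeases for the same amino acids, *LYP1* for lysine, *CAN1* and *ALP1* for arginine and *HIP1* for histidine, had ratios of 1.06, 1.08, 1.10 and 0.997, and none of the 4 passed.

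The other genes named RTC came from the same telomere capping screen but have varied functions. Of 5, only *RTC6*, a mitochondrial ribosomal protein gene, passed, and it rose to a ratio of 1.11 (limma adjusted p = 0.0372). *RTC3* had a ratio of 0.751 with every mutant array lower, as for 21.5% of all probe sets, and did not pass (limma adjusted p = 0.0740). *RTC4* and *RTC1*, the latter a SEA complex gene, had ratios of 1.14 and 1.10 (limma adjusted p = 0.168 and 0.0862). For 3 of the 5, *RTC1*, *RTC4* and *RTC6*, every mutant array was higher, as for 1121 of the 5449 genes tested. The list median was 0.14, opposite in sign to the difference of *RTC2*. The number of calls in these lists depended on which arrays were kept. Without wild-type replicate 1, 2 or 3 or K37A replicate 2, the number called was 0 in each of the vacuolar, sensing, amino acid and RTC lists, where 55, 2, 135 and 7 of all probe sets passed limma and 1499, 1502, 1660 and 1435 had an unadjusted p under 0.05. Without K37A replicate 3, the vacuolar transporters and the synthesis genes had 1 call each and the sorting and RTC lists 0. Without K37A replicate 1, the sorting list had 3 calls, the EGO, SEA and TORC1 list 2, and the transporters and the ATPase 1 each. The synthesis list then had 3 calls and the RTC list 1, the same numbers as with all arrays.

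**Figure D3:**
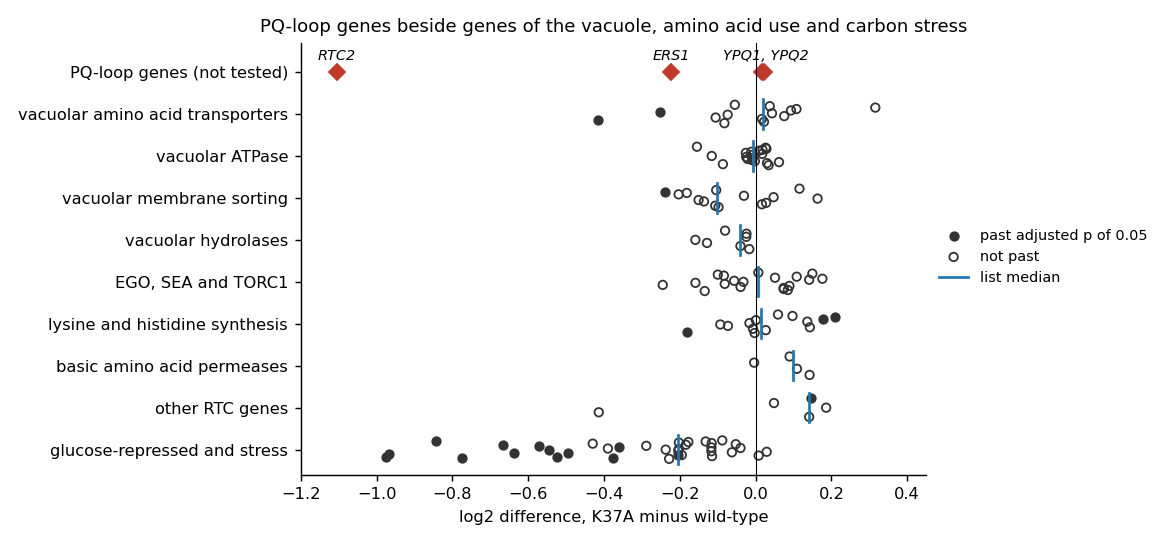
Log2 difference between H2B K37A and wild-type H2B for the PQ-loop genes (red diamonds, not tested) and for the measured genes of each list, filled where the limma adjusted p is under 0.05 and open where it is not, with the list median in blue. RTC2, placed at -1.10, was chosen for its low value on these arrays. The genes of the vacuolar and amino acid lists range from -0.42 (AVT2) to 0.32 (VBA3, a dim signal that overlapped between the strains).

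The values of *RTC2* were set beside the mean of a list of glycogen, trehalose, stress and glucose-repressed genes on the same arrays. Of 35 such genes outside the study's list of 2-fold changes, 13 fell, none rose and 22 did not pass, with a median of -0.20, and 28 had every mutant array below every wild-type array, as did 21.5% of all probe sets. *DDR2*, a stress gene, fell to a ratio of 0.509, the glycogen phosphorylase *GPH1* to 0.512, the repressor *XBP1* to 0.557 and the aldehyde dehydrogenase *ALD4* to 0.585 (limma adjusted p = 0.0340, 0.0278, 0.0203 and 0.0402). None of the trehalose genes *TPS1*, *TPS2*, *TSL1* and *NTH1* passed (ratios of 0.923, 0.869, 0.884 and 0.922). For each of them every mutant array lay below every wild-type array, as for 21.5% of all probe sets. *GDB1*, *HSP12*, *HSP26*, *MLS1*, *FBP1*, *HXT5* and *SPI1* overlapped between the strains. The trehalose and the overlapping genes were named after their values were seen. Averaged over the 35 and centered over the 6 arrays, their log2 signal stood at 0.29, 0.14 and 0.071 in wild-type replicates 1, 2 and 3 and at -0.051, -0.12 and -0.32 in K37A replicates 1, 2 and 3. *RTC2*, centered in the same way, was 0.68, 0.57 and 0.40 and then -0.14, -0.69 and -0.82. Within each strain the arrays stood in the same order for the list and for *RTC2*, with replicate 1 highest and replicate 3 lowest. *ERS1* had the order of the list on the K37A arrays, at -0.069, -0.13 and -0.14, but not on the wild-type arrays, at 0.15, 0.072 and 0.11. *YPQ1*, at -0.060, 0.0056 and 0.028 and then -0.051, -0.041 and 0.12, had the reverse order within both strains. The part of this list in the values of the members was not tested, and the list gave 0, 0 and 1 calls without wild-type replicates 1, 2 and 3 and 0 without K37A replicate 2, 17 without K37A replicate 1 and 8 without K37A replicate 3.

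**Figure D4:**
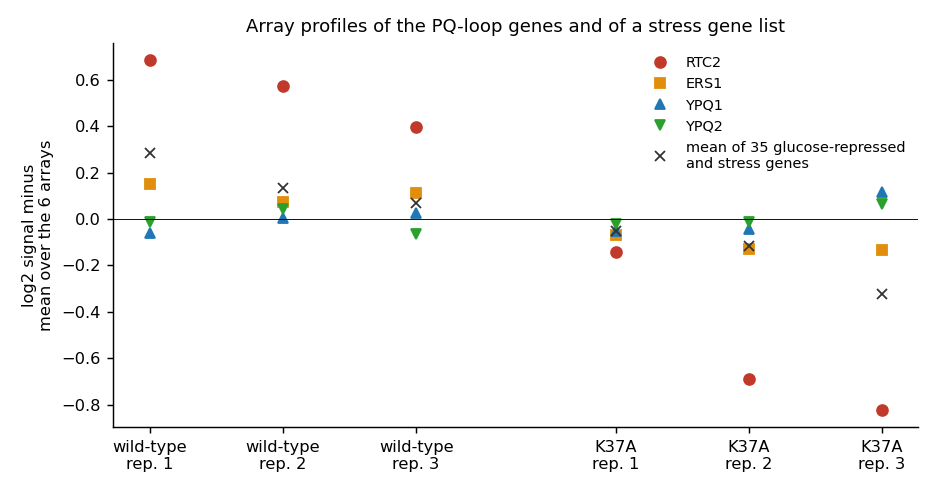
Log2 signal of each PQ-loop gene, and the mean of 35 glucose-repressed and stress genes, minus its mean over the 6 arrays, for each array. RTC2 spans 0.68 to -0.82, the list mean 0.29 to -0.32, and both are highest in replicate 1 and lowest in replicate 3 of each strain.

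Likeness of pattern was measured by Pearson's r over the 6 arrays, which for *RTC2* and *ERS1* mostly follows the gap between the strains and carries no test. The probe sets closest to *RTC2* were those of *IML2* and *PAM1* (r = 0.998 each), *GRH1*, a Golgi protein gene (0.998), *CRC1*, the mitochondrial carnitine carrier (0.997), and *VPS60*, of the ESCRT machinery that sorts membrane proteins into the vacuole (0.997). Their ratios were 0.642, 0.860, 0.837, 0.623 and 0.929. Within the strains, after subtracting each strain's mean, the same 5 had r of 0.981 to 0.992 with *RTC2*. They were picked by their r on these same arrays, so the within-strain values are no separate check. *ERS1* had r = 0.966 with *RTC2* over the arrays and 0.733 within strains, but 367 of the 5498 probe sets had r over 0.95 with *RTC2*, so that such a value is shared by many genes. The closest to *ERS1* were *RRI2*, *YER039C-A* and *ARF2* (r = 0.997, 0.996 and 0.996), with ratios of 0.718, 0.822 and 0.882. *YPQ1* and *YPQ2* followed neither, with r of -0.403 and -0.338 with *RTC2*. The closest to *YPQ1* were *UGA3*, *MNN1* and *TFC6* (r = 0.986, 0.984 and 0.980), and to *YPQ2* the amino acid synthesis activator *GCN4*, the tubulin gene *TUB1* and *YKR041W* (0.982, 0.970 and 0.964), none of which passed the limma test. Over 6 arrays these correlations are descriptions only.

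The genes on either side of each member were examined to see whether a difference extended along the chromosome. Of 16 such genes, 15 were measured, with 1 called lower, beside 8.08% of all probe sets, none higher and differences from -0.19 to 0.39. Next to *RTC2*, *MRPS9*, a mitochondrial ribosomal protein gene, and *YSW1*, a sporulation gene, had ratios of 1.04 and 0.912 and did not pass (limma adjusted p = 0.465 and 0.188). *ADH5*, an alcohol dehydrogenase gene, had 0.981, whereas *ARA1*, an arabinose dehydrogenase gene next to *YSW1*, fell to 0.875 (limma adjusted p = 0.0447). Its log2 signal was 13.12, 13.06 and 13.03 in wild-type and 12.94, 12.88 and 12.81 in K37A cells, a difference of -0.19 beside -1.10 for *RTC2*. The 4 genes around *ERS1*, namely *SSK22*, *SOL2*, *EGO2* and *FUB1*, had ratios of 0.883, 0.943, 0.911 and 0.919, all below 1, but none passed (limma adjusted p = 0.0779, 0.284, 0.167 and 0.263). *EGO2*, the neighbor of *ERS1* in the table, encodes a subunit of the EGO complex. Its 3 mutant arrays (10.97, 11.00 and 10.80) were all below the wild-type arrays (11.09, 11.09 and 11.00), as for 21.5% of all probe sets. The groups of *SSK22* were apart in the same direction, and those of *SOL2* and *FUB1* overlapped. Around *YPQ1*, *SPO21*, a meiotic spindle pole gene, had a ratio of 1.31 that did not pass (limma adjusted p = 0.0586), and *TRM10* and *RFC4* had 1.01 and 1.04. For *SPO21* every mutant array lay above every wild-type array, as for 1121 of the 5449 genes tested. Around *YPQ2*, *ATP22*, *SBE2*, *TRR1* and *TRP4* had ratios between 0.939 and 1.03, and none passed.

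**Figure D5:**
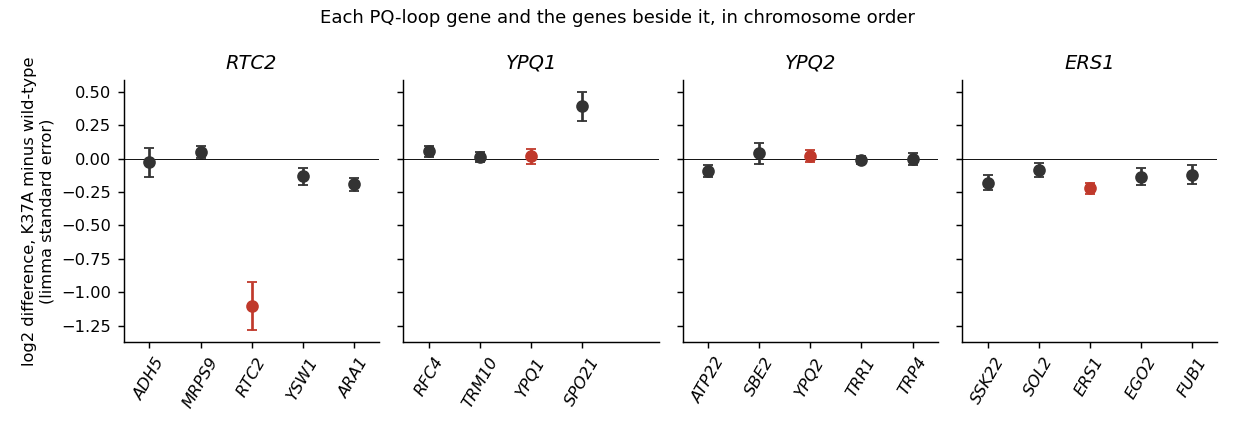
Log2 difference between H2B K37A and wild-type H2B, with the limma standard error, for each PQ-loop gene (red) and up to 2 genes on each side (black), in chromosome order. RTC2 stands at -1.10 between genes at 0.052 and -0.13, while ERS1 and its neighbors lie between -0.085 and -0.22.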

How the data were processed

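RNA of 3 wild-type H2B and 3 H2B K37A cultures was measured on 6 arrays, grouped by the sample titles. The authors processed the arrays with RMA in Affymetrix Expression Console (version not given in the sources used here), then deposited log2 values for 10928 probe sets in 1 table. RMA gives the arrays 1 common distribution, so a shift of most transcripts would be lost, and it compresses dim signals. The platform annotation named the probe sets, 7244 with 1 symbol, 1 with several and 3683 with none, and the 5498 that matched assembly R64 were tested. The array names no genome build, so no coordinates are given, and no sequences were used. limma 3.58.1 in R 4.3.3 (lmFit, eBayes, strain only) gave standard errors and two-sided p-values with Benjamini-Hochberg adjustment over the 5498, at a threshold of 0.05. The study used a 2-fold cutoff and names no test. Lists used the brightest probe set of a gene. A fit on simulated data was checked first. An exact test of 3 arrays against 3 cannot go below p = 0.1, so precision is limited by the array number. No depth applies.

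The members and lists were chosen with earlier results of these data known. Named are the members, up to 4 genes per list with the largest difference, 2 genes on each side of a member, and the 5 (*RTC2*) or 3 probe sets with the highest r. Alternatives were renewed quantile normalization, median centering, reference genes, arithmetic means, a background filter, array weights, the replicate number as a block and each array left out.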

Additional observations from a re-analysis of the deposited data

How the results depend on the processing

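The log2 difference of *RTC2* was -1.31 to -0.97 and that of *ERS1* -0.24 to -0.20 when each array was left out in turn, and those of *YPQ1* and *YPQ2* were -0.037 to 0.048 and -0.0042 to 0.051. Under renewed quantile normalization, median centering, reference genes and arithmetic means they stayed within 1 SD of replicates. A setting chosen after seeing the data left out both wild-type replicate 1 and K37A replicate 3. There *RTC2* was at -0.90, *ERS1* at -0.19, *YPQ1* at -0.063 and *YPQ2* at -0.0054. Deviations from the strain mean correlated at 0.400, -0.291 and 0.233 between same-numbered arrays of the strains, and at -0.496 to 0.356 between unlike-numbered arrays. With so few arrays these values cannot decide whether same-numbered cultures were paired. With the replicate block *RTC2* had a difference of -1.10 (standard error 0.098, beside 0.18 without the block) and 947 rather than 798 probe sets passed. Under the block *SSH4* passed, giving the sorting list 2 calls, *LYS21* did not, leaving 2 in the synthesis list, *RTC3* passed in place of *RTC6*, and the glucose-repressed and stress list rose from 13 to 17 calls. The calls over all probe sets were 2 to 1140 with an array left out. For the lists that range was 0 to 1 (vacuolar transporters, vacuolar ATPase, RTC genes), 0 to 2 (EGO, SEA and TORC1), 0 to 3 (sorting, and lysine and histidine synthesis), 0 to 17 (glucose-repressed and stress genes) and 0 (permeases, hydrolases). Vacuolar transporters gave 1 call with renewed quantile normalization or median centering. Array weights, whose estimation stopped before its tolerance was reached, gave 1956 calls, with 4 among vacuolar transporters, 1 for the ATPase, 6 for sorting, 3 for EGO, SEA and TORC1, 3 for RTC genes, 2 for hydrolases and 23 for glucose-repressed and stress genes, and the cause was not tested. The 3 arrays a strain limit what small differences can show.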
